A study of Brassica napus with 6 samples.

Results

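The genes described here were read in very young leaves of a glabrous Brassica napus line, DH6-110, and were at or near 0 in the hairy line, DH6-47. The genes were chosen by their TPM, a deposited expression level that takes transcript length into account. Summed over transcript models, a gene had to be at 3 TPM or more in both glabrous leaves and at 0.3 TPM or less in both hairy leaves. Names on chromosomes A01, A02, A10, C01, C02, C05, C06 and C08 were left out. This gave 215 genes of 145279 listed, called glabrous-only below. The same rule turned round gave 158 hairy-only genes. On the left-out chromosomes it gave 483 glabrous-only and 371 hairy-only genes. The rule rests on the TPM of the same 4 leaves, so the difference between the lines in these 215 genes is a description and carries no test.

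Both lines are doubled haploids, described by the submitters as near-isogenic, from the parents Quantum/LG3260 and CN113136. The glabrous line carries no stated number of trichomes, and the hairy line has about 600 trichomes per leaf. All plants grew at 16 h light and 8 h dark, and each library was made from poly-A RNA of 1 leaf. The labels list leaves 1 to 3 of each line, but the deposited TPM are named for leaves 1 and 3 only. Those leaves were used, and leaf 2 of each line was not analysed here. Each group is a single line, so the line and anything else that sets it apart cannot be told apart.

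Brassica napus, oilseed rape, is an allopolyploid that carries an A genome related to Brassica rapa and a C genome related to Brassica oleracea. Most of its genes therefore have a close partner, the homeologue, at a matching place in the other genome, and often further copies from an older triplication. Stretches of one genome can replace the matching stretch of the other, which is known as homeologous exchange and is a recognised source of genes present in one line and missing in another. In this text a copy is any other listed gene that carries the same Arabidopsis (TAIR) gene code. Where copies are nearly the same in sequence, a read can be assigned to the wrong one, and DNA was not measured.

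The summed level of the 215 genes was 2641 TPM in glabrous leaf 1 and 3233 TPM in glabrous leaf 3, against 17.0 TPM in hairy leaf 1 and 7.90 TPM in hairy leaf 3. The mean over the glabrous leaves ran from 3.07 to 78.2 TPM with a median of 8.85 TPM. It was at least 10 TPM in 98 genes and at least 30 TPM in 21 genes. In the hairy line 68 of the genes were listed at 0 in both leaves, and 147 had a trace in at least 1 leaf. The glabrous-only genes were 1.15% of the 18615 genes that had at least 3 TPM in both glabrous leaves outside the left-out chromosomes, and the median of those 18615 genes was 13.0 TPM. Glabrous leaf 3 was above glabrous leaf 1 in 159 of the 215 genes (74.0%), beside 67.4% of all 29207 genes at that level.

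**Figure D1:**
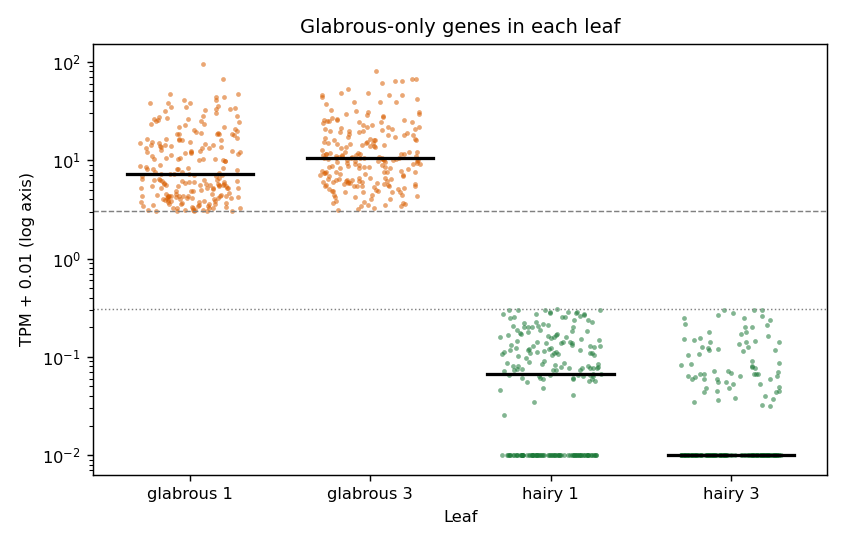
TPM of the 215 glabrous-only genes in each leaf, with 0.01 TPM added for the log axis. Each point is a gene, black bars are medians, and the dashed and dotted lines mark the limits of 3 and 0.3 TPM in the rule, which force the gap between the lines. The medians were 7.16 and 10.4 TPM in the glabrous leaves, against 0.0577 and 0 TPM in the hairy leaves.

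Summed TPM per leaf ran from 954250 to 962645 over the 4 leaves, and between 39919 and 43209 genes had at least 1 TPM. Of the 5 leaf markers 4 were high in every leaf, and the fifth, the RBCS1A code AT1G67090, was at 2.03 and 0 TPM in glabrous leaves and 0 and 0 TPM in hairy leaves. Their sum was 6739 and 9302 TPM in glabrous leaves and 4211 and 5079 TPM in hairy leaves. All 4 shoot meristem markers were under 1 TPM in every leaf. The 3 root markers summed to 1.62 and 0.502 TPM in glabrous leaves and 1.15 and 4.51 TPM in hairy leaves. The 4 flower markers summed to 4.76 and 16.4 TPM in glabrous leaves and 5.28 and 4.47 TPM in hairy leaves, mostly from AP1. The 4 trichome markers summed to 10.3 and 28.3 TPM in glabrous leaves, against 37.0 and 50.2 TPM in hairy leaves. Most of this was MYB106, at 6.93 and 24.6 TPM in glabrous leaves and 19.2 and 33.1 TPM in hairy leaves, where the lines overlapped. GL2, MYB23 and TTG2 were low and each lower in both glabrous leaves than in both hairy leaves. In whole leaves fewer cells of a type and less RNA per cell cannot be told apart, and the part of trichome cells in the results below was not tested.

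The glabrous-only genes were not spread evenly. Scaffolds 7, 15 and 25, which carry no chromosome name, held 75 of them. They made up 34 of 59 genes at 3 TPM or more in both glabrous leaves on scaffold 7 (57.6%), 23 of 43 on scaffold 15 (53.5%) and 18 of 28 on scaffold 25 (64.3%). No hairy-only gene lay on these 3 scaffolds. Among named chromosomes C09 held 47 glabrous-only genes (2.61% of its 1804 genes at that level), A09 held 29 (1.38%), C04 held 19 (1.13%), C03 held 14 and A03 held 11. A08 held none, and A05 and C07 held 1 each.

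**Figure D2:**
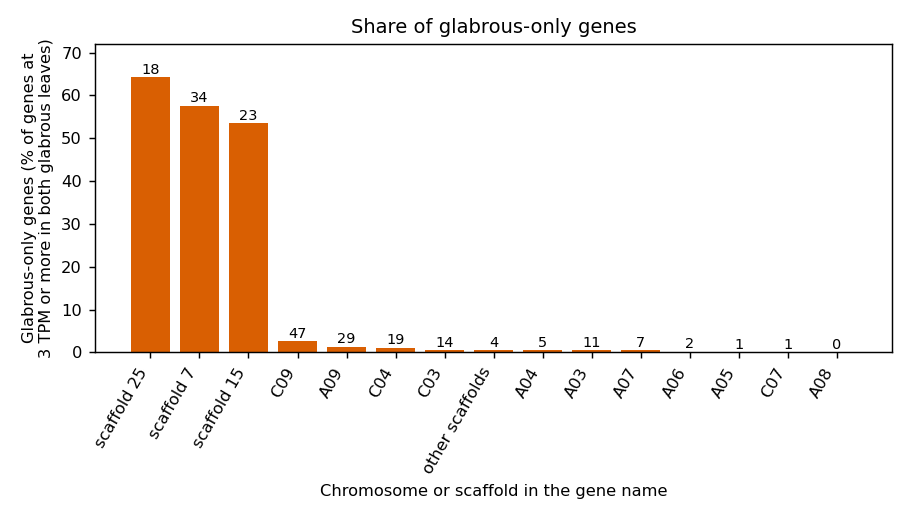
Glabrous-only genes as a percentage of all genes with at least 3 TPM in both glabrous leaves, by the chromosome or scaffold in the gene name. Numbers above the bars count glabrous-only genes; scaffolds 7, 15 and 25 stand between 53.5% and 64.3%, and C09, the next, at 2.61%.

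Order was read from the running numbers in the gene names. By that order 141 of the 215 genes had another glabrous-only gene within 10 listed genes, in 25 runs. The longest runs held 18 genes each, on C09 (BnaC09g005160.4DH to BnaC09g005760.4DH), on scaffold 15 (BnaS00015g0150.4DH to BnaS00015g0730.4DH) and on scaffold 25 (BnaS00025g0200.4DH to BnaS00025g0630.4DH). Stretches were then drawn, after the values were seen, around these and neighbouring runs. They are the 3 scaffolds, a first C09 stretch (BnaC09g001500.4DH to BnaC09g001700.4DH, 6 genes), a second C09 stretch (BnaC09g004150.4DH to BnaC09g005760.4DH, 34 genes) and an A09 stretch (BnaA09g006900.4DH to BnaA09g007560.4DH, 9 genes). Together they hold 124 glabrous-only genes, and the other 91 are scattered.

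The 3 scaffolds lie outside the left-out chromosomes by name only. In the gene order of the RefSeq Da-Ae assembly, another oilseed rape genome, the last matched gene of C06 is followed 1 gene later by scaffold 25, which is followed 2 genes later by scaffold 15 and, 1 gene after that, by scaffold 7. Only 4 genes then remain to the chromosome end. All 3 scaffolds run in the reverse direction there. Of their glabrous-only genes with a match, 10 of 10 on scaffold 25, 17 of 20 on scaffold 15 and 20 of 20 on scaffold 7 were on chromosome C6 of that assembly. The Arabidopsis codes at the ends meet in the same way. The last coded gene of C06 carries AT1G76420, and the coded genes at the ends of scaffold 25 carry AT1G76430 and AT1G77300. Those of scaffold 15 carry AT1G77300 and AT1G78770, and those of scaffold 7 carry AT1G78780 and AT1G79900. By this order the scaffolds that hold 75 of the 215 genes belong with the end of C06, a chromosome that the rule leaves out, and 140 of the genes lie elsewhere.

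Genes in the stretches that the rule did not take mostly had the same direction. In the limma fit over all 44247 tested genes (log2 of TPM + 1, Benjamini-Hochberg adjusted p under 0.05), 4.48% were called higher in the glabrous line. Of 163 tested neighbours in the stretches that are not glabrous-only, 106 were called higher and 129 had both glabrous leaves above both hairy leaves, which 17.4% of all tested genes did. Their median log2 change, glabrous minus hairy, was 1.81, beside -0.03 over all tested genes. Of these 163 neighbours 70 averaged 1 TPM or more over the hairy leaves. The others needed a glabrous leaf at 1 TPM or more to be tested at all. A higher value in the glabrous line is therefore in part built into these counts and this median. The count of 106 fell to between 30 and 69 when any single leaf was left out, the lowest without hairy leaf 3. The scaffolds held 73 of 99 neighbours called higher, and no neighbour in any stretch was called lower. The change was not even along the scaffolds. From BnaS00015g1160.4DH to BnaS00015g1280.4DH the log2 changes of tested genes ran from -0.96 to 0.46. From BnaS00025g0010.4DH to BnaS00025g0060.4DH they ran from -0.78 to 0.11. None of these genes was called, and these ends of scaffolds 15 and 25 adjoin in the Da-Ae order.

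Beside the C09 stretches the median changes were near 0. The stretches were drawn to end at glabrous-only genes after the values were seen, which in part makes such edges. Of the 10 tested genes on each side of the second C09 stretch none was called in either direction, and their medians were 0.10 before and 0.17 after it. A log2 change of 1 or more was seen in 2 of the 10 before it and 1 of the 10 after it. The first C09 stretch had 4 of its 4 tested neighbours called higher, and of the 10 tested genes on each side 1 was called higher and 2 were called lower in all. The second had 22 of 27. Over the hairy leaves 0 of those 4 neighbours and 5 of those 27 averaged 1 TPM or more. The A09 stretch was uneven too: 7 of its 33 tested neighbours were called higher, and the median of the 33 was 0.09. Around its run of 7 glabrous-only genes from BnaA09g007390.4DH 6 of 6 tested neighbours were called higher, while 1 of the 27 before that run was. This division was made after the values were seen.

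**Figure D3:**
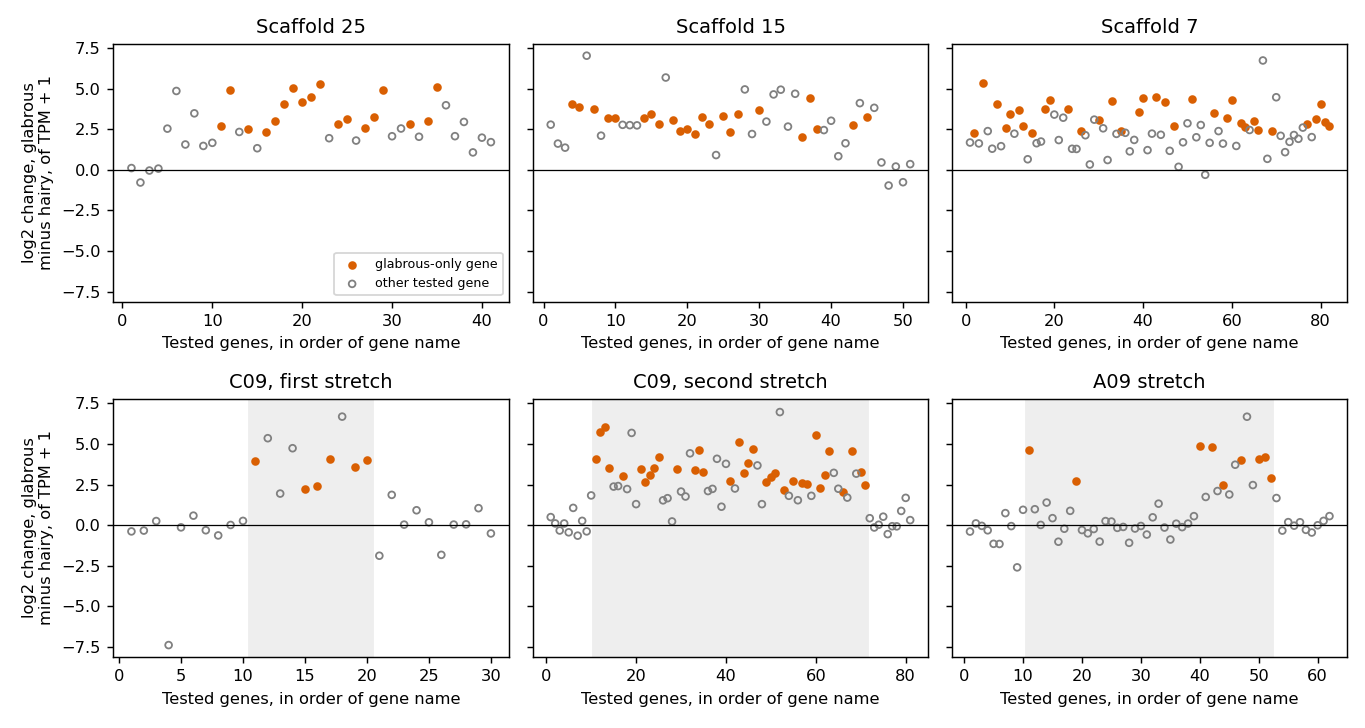
Log2 change (glabrous minus hairy, of TPM + 1) of each tested gene in the order of the gene names on the 3 scaffolds and the C09 and A09 stretches. Filled points are glabrous-only genes, which the rule holds above 0, open points are other tested genes, and grey areas are the stretches with 10 tested genes on each side; the neighbours on the scaffolds had a median of 2.01 and those of the A09 stretch 0.09.

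On the second C09 stretch the highest glabrous-only gene was BnaC09g004170.4DH, matched to NRPB6A, a small subunit shared by nuclear RNA polymerases. It had 95.9 and 60.5 TPM in the glabrous leaves, against 0.272 and 0.106 TPM in the hairy leaves. Next to it BnaC09g004160.4DH, matched to GATL10 of a glycosyltransferase family, had 38.1 and 80.4 TPM in the glabrous leaves, against 0.0687 and 0.0534 TPM in the hairy leaves. BnaC09g005520.4DH, matched to ACLB-2, a subunit of the ATP citrate lyase that makes cytosolic acetyl-CoA, had 44.3 and 63.5 TPM in the glabrous leaves, against 0.269 and 0.0349 TPM in the hairy leaves. These 3 genes were all among the highest of the 215, and their hairy values stayed under the limit of the rule. BnaC09g005700.4DH, matched to AN3, a transcriptional coactivator that promotes cell proliferation in Arabidopsis leaves, had 23.1 and 27.2 TPM in the glabrous leaves, against 0.260 and 0 TPM in the hairy leaves. BnaC09g005570.4DH, matched to PFD3 of the prefoldin chaperone, had 22.9 and 25.8 TPM in the glabrous leaves, against 0.0985 and 0.0767 TPM in the hairy leaves. On the first C09 stretch BnaC09g001700.4DH, matched to the endoglucanase GH9B13, had 16.3 and 16.8 TPM in the glabrous leaves, against 0.151 and 0 TPM in the hairy leaves.

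The A09 run held a gene of DNA metabolism. BnaA09g007420.4DH, matched to RPA70D, a large subunit of the single-strand DNA binding protein RPA, had 28.3 and 29.7 TPM in the glabrous leaves, against 0.134 and 0.0349 TPM in the hairy leaves. Over all 9 genes of the A09 stretch the median glabrous mean was 17.0 TPM, above the median of the 34 genes on the second C09 stretch (9.21 TPM).

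On the scaffolds, genes of quite different roles shared the pattern. BnaS00025g0630.4DH, matched to CDKB2;1, a plant-specific kinase of the G2 and M phases of the cell cycle, had 47.3 and 31.2 TPM in the glabrous leaves, against 0.149 and 0.116 TPM in the hairy leaves. BnaS00025g0440.4DH, described as an indole glucosinolate O-methyltransferase, had 40.8 and 47.7 TPM in the glabrous leaves, against 0.209 and 0.109 TPM in the hairy leaves. BnaS00007g0060.4DH, described as a DnaJ chaperone, had 40.6 and 46.5 TPM in the glabrous leaves, against 0.0502 and 0.117 TPM in the hairy leaves. The 2 glabrous leaves were close to each other in the last 2 of these. BnaS00025g0540.4DH, matched to the calcium sensor CML38, had 38.5 and 30.7 TPM in the glabrous leaves, against 0.177 and 0.138 TPM in the hairy leaves. BnaS0015g00182.4DH, matched to POLD3, a subunit of the replicative DNA polymerase delta, had 13.1 and 14.7 TPM in the glabrous leaves, against 0.0554 and 0 TPM in the hairy leaves. BnaS00025g0370.4DH, matched to the tubby-like F-box protein TLP1, stood out for its spread, with 18.1 and 63.7 TPM in the glabrous leaves, against 0.0512 and 0.0399 TPM in the hairy leaves. BnaS00007g0150.4DH, matched to NTT1, a plastid ATP/ADP carrier, had 13.6 and 21.8 TPM in the glabrous leaves, against 0.173 and 0 TPM in the hairy leaves.

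Copies of the glabrous-only genes were read in the hairy line in nearly all cases. Of the 186 genes with a TAIR code, 182 had another copy averaging 1 TPM or more over the hairy leaves, and in 146 the highest such copy was above the glabrous-only gene's own glabrous mean. Of the 178 genes whose codes are carried by up to 20 listed genes, 174 had such an expressed copy. No such share is given for other genes, so these counts have no background. The 8 genes whose codes are carried by more than 20 listed genes were kept out of the counts of called copies and of code sums that follow. The remaining codes had 683 other copies, of which 473 were tested. In the limma fit 43 of them were called lower in the glabrous line, where 5.24% of all tested genes were, and 4 were called higher. Both glabrous leaves were below both hairy leaves in 185 copies, which 21.4% of all tested genes were, and above in 49. The median log2 change of the copies was -0.26. Without hairy leaf 1, without hairy leaf 3 or without glabrous leaf 1 the count called lower was 7, 7 and 9, and the leaf numbers as a block left 21.

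Lower values were frequent among the counterparts of the stretches, which were 131 of the 321 copies with a lower value in the glabrous line. Counterparts were taken here as the copies on A07 for the scaffolds, on A09 for the C09 stretches and on C09 for the A09 stretch, a choice made after the values were seen. The A07 copies lie in more than 1 place by name, and the counts, medians and sums pool them. Whether each lies at the matching place was not checked. Of the 96 on A07, 85 had a lower value in the glabrous line. Copies of 1 code could differ: for AT1G79020 the log2 change was 1.24 in BnaA07g034020.4DH and -1.27 in BnaA07g050960.4DH. Of 143 such counterparts 28 were called lower in the glabrous line and none higher by limma, and 106 had both glabrous leaves below both hairy leaves. Among all tested genes 5.24% were called lower and 4.48% higher, and 21.4% had both glabrous leaves below both hairy leaves. The median log2 change of the 143 counterparts was -0.97. It was -0.89 for the 96 copies on A07, -0.89 and -1.16 for the 6 and 34 copies on A09, and -1.06 for the 7 copies on C09. The other 203 copies of the same genes had a median of -0.08, with 7 called lower and 1 higher. The copies of the scattered genes had a median of -0.05 over 127 copies, with 8 called lower and 3 higher. For these 127 copies and for the other 203 the share called lower was near that of all tested genes. Without hairy leaf 1 or hairy leaf 3 only 4 counterparts were called lower, without glabrous leaf 1 it was 6, and the block left 11, while the medians of the scaffold counterparts stayed between -1.06 and -0.69 when any single leaf was left out. No test compared the counterparts with the other copies.

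**Figure D4:**
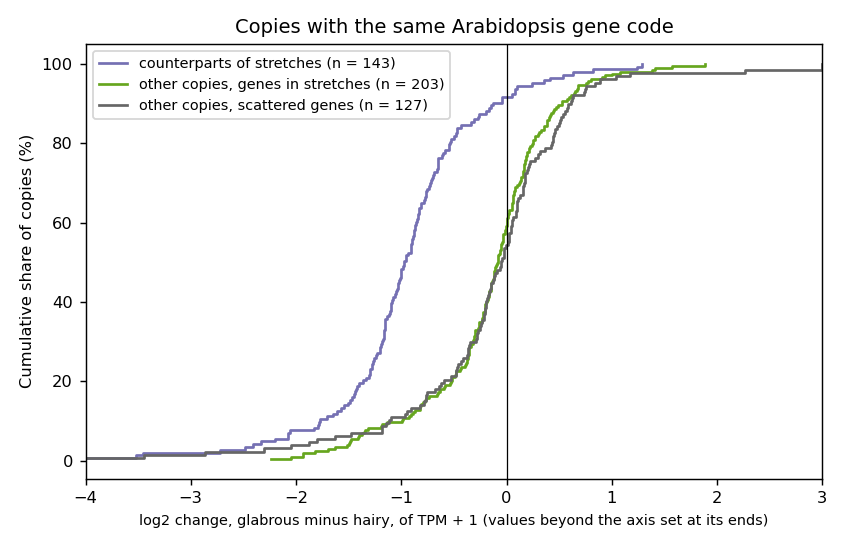
Cumulative share of tested copies against their log2 change (glabrous minus hairy, of TPM + 1). The 143 counterparts lie to the left with a median of -0.97, while the 203 further copies of the same genes (-0.08) and the 127 copies of scattered genes (-0.05) are centred near 0.

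Single pairs show the size of these differences. For NRPB6A the A09 copy BnaA09g003580.4DH had 77.8 and 56.8 TPM in the glabrous leaves, against 133 and 137 TPM in the hairy leaves, a log2 change of -1.01 ± 0.39 (SE) that was not called (limma adjusted p = 0.161). The ACLB-2 copy BnaA09g004790.4DH had 63.0 and 71.4 TPM in the glabrous leaves, against 152 and 121 TPM in the hairy leaves, and was not called either (limma adjusted p = 0.158). In both the groups did not overlap. The GATL10 copy BnaA09g003570.4DH had 17.6 and 32.1 TPM in the glabrous leaves, against 80.3 and 88.4 TPM in the hairy leaves, and was called lower with a log2 change of -1.78 ± 0.39 (limma adjusted p = 0.0109). For CML38 the A07 copy BnaA07g049030.4DH had 10.6 and 10.9 TPM in the glabrous leaves, against 40.3 and 104 TPM in the hairy leaves, and was called lower by 2.48 on the log2 scale (log2 change -2.48, limma adjusted p = 0.0032). These 2 calls held in all 7 other settings with every leaf, and in 1 and 2 of the 4 fits with a leaf left out, where the adjusted p reached 0.217 and 0.165. For the methyltransferase the A07 copy BnaA07g049120.4DH had 29.2 and 46.6 TPM in the glabrous leaves, against 125 and 82.7 TPM in the hairy leaves. It was called lower (limma adjusted p = 0.0424), in 2 of the 7 other settings and 1 of the 4 fits with a leaf left out. For RPA70D, in the opposite direction between the genomes, the C09 copy BnaC09g008470.4DH had 35.7 and 36.4 TPM in the glabrous leaves, against 92.8 and 62.7 TPM in the hairy leaves (limma adjusted p = 0.119).

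Added together, the glabrous-only genes and their counterparts came to similar totals in the lines. On the scaffolds 74 glabrous-only genes had a counterpart, and these genes summed to 847 and 1023 TPM in the glabrous leaves, against 6.11 and 2.88 TPM in the hairy leaves. Their A07 counterparts summed to 1066 and 1299 TPM in the glabrous leaves, against 2468 and 2239 TPM in the hairy leaves. The totals of both were 1913 and 2323 TPM in the glabrous leaves, against 2474 and 2242 TPM in the hairy leaves, so the lines overlapped in the total. They did not overlap in the counterparts. The gap in the glabrous-only part is fixed by the rule, and the totals include that part. On the second C09 stretch the totals were 936 and 1060 TPM in the glabrous leaves, against 1079 and 994 TPM in the hairy leaves. On the A09 stretch they were 209 and 262 TPM in the glabrous leaves, against 268 and 222 TPM in the hairy leaves. The lines overlapped in each of these.

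**Figure D5:**
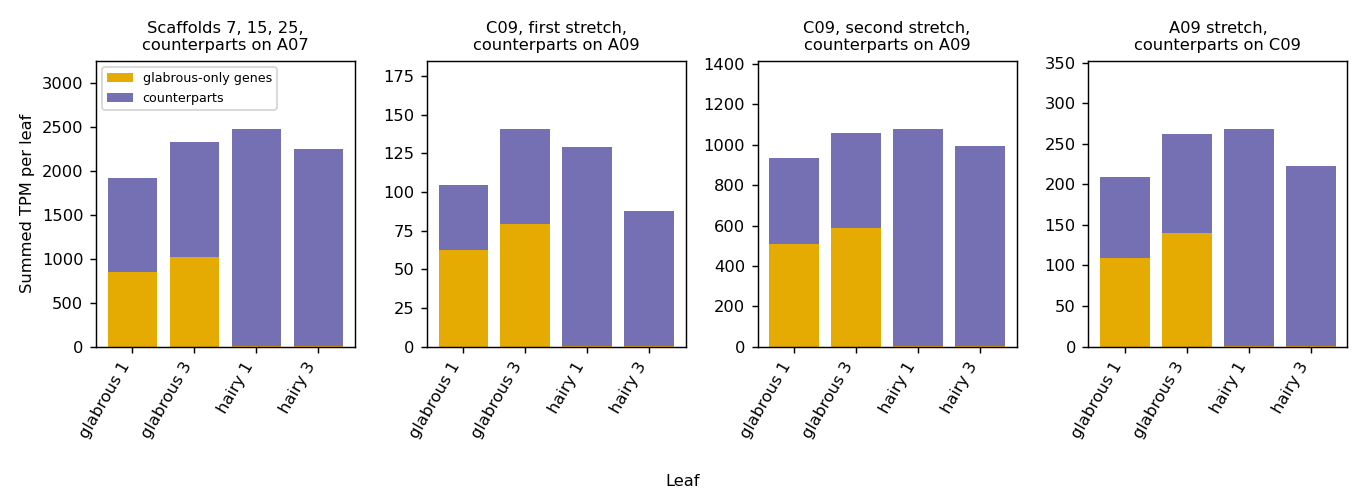
Summed TPM per leaf of the glabrous-only genes that have a counterpart and of those counterparts, for the scaffolds, the first and second C09 stretches and the A09 stretch. The glabrous-only part is visible in the glabrous leaves alone, which the rule fixes. The full bars of the lines overlap in every panel. On the first C09 stretch they reach 105 and 141 TPM in the glabrous leaves, against 129 and 87.8 TPM in the hairy leaves.

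Whole TAIR codes in the stretches were mostly close between the lines, and codes of scattered genes less often. With all copies and the glabrous-only gene summed, 112 of 122 codes in the stretches differed between the lines by less than 1 on the log2 scale, with a median of -0.07. Among 53 codes of scattered genes 34 did, 18 were higher in the glabrous line by 1 or more, and the median was 0.58. Over all TAIR codes 91.4% were within 1, so the share in the stretches was like that of codes in general. The sums of the glabrous-only genes' codes include the gene that the rule holds higher in the glabrous line, so an upward shift is built into them. With that gene left out, the median was -0.61 over 122 codes in the stretches and -0.08 over 49 codes of scattered genes. Without the glabrous-only gene, 171 sums were tested, 9 were called lower in the glabrous line by limma, where 1.9% of all 15689 codes were, and none was called higher, where 0.198% were; 44 had an unadjusted p under 0.05. These 9 were AT1G78830, AT3G03773, AT1G78850, AT1G76650, AT1G78060, AT3G28340, AT3G29030, AT1G76670 and AT1G17380, of which 7 belong to stretches. Their number was between 2 and 15 when any single leaf was left out, with 2 without hairy leaf 3, 4 without hairy leaf 1 and 15 without glabrous leaf 3, and it was 4 with the block.

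In 8 genes the same code had a copy with the mirrored pattern, at least 3 TPM in both hairy leaves and at most 0.3 TPM in both glabrous leaves. In 3 of them (AT1G14800, AT2G07760 and AT1G29720) the code is carried by more than 20 listed genes, which leaves 5. One of these codes is AT3G03773, an HSP20-like chaperone. The scaffold gene BnaS00019g0200.4DH had 21.8 and 22.6 TPM in the glabrous leaves, against 0.120 and 0 TPM in the hairy leaves, while BnaA01g064580.4DH had 0.0864 and 0 TPM in the glabrous leaves, against 17.3 and 24.2 TPM in the hairy leaves. The code as a whole differed by 0.11 on the log2 scale. For the FRIGIDA-like code AT5G48385 the C09 gene BnaC09g005040.4DH had 31.3 and 36.8 TPM in the glabrous leaves, against 0.0465 and 0 TPM in the hairy leaves, while BnaA09g004420.4DH had 0 and 0 TPM in the glabrous leaves, against 13.8 and 7.96 TPM in the hairy leaves. For CID8, a protein that interacts with poly-A binding protein, both genes are named on A06. BnaA06g001272.4DH had 4.00 and 7.24 TPM in the glabrous leaves and was at 0 in both hairy leaves, while BnaA06g001242.4DH had 0.104 and 0.153 TPM in the glabrous leaves, against 7.08 and 7.31 TPM in the hairy leaves. The lectin code AT1G78850 had BnaS00007g1510.4DH at 16.4 and 4.39 TPM in the glabrous leaves, against 0.0628 and 0.147 TPM in the hairy leaves, and BnaA07g050810.4DH at 0 and 0.0668 TPM in the glabrous leaves, against 7.89 and 13.5 TPM in the hairy leaves.

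In 3 genes no other copy of the code reached 1 TPM in any leaf, so the code was at or near 0 in the hairy line. BnaC04g013660.4DH, whose protein carries CBS and PB1 domains, had 33.3 and 66.6 TPM in the glabrous leaves, against 0 and 0.0945 TPM in the hairy leaves. BnaC07g080310.4DH, matched to the Pumilio RNA-binding protein APUM16, had 3.23 and 6.65 TPM in the glabrous leaves and was at 0 in both hairy leaves. BnaS0515g00008.4DH, matched to the chloroplast gene PETA for cytochrome f, had 4.19 and 3.41 TPM in the glabrous leaves and was at 0 in both hairy leaves. Poly-A selection is not designed to capture chloroplast transcripts.

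Among the scattered genes some stood far above the hairy level of their code. BnaA09g012090.4DH, matched to the linker histone HIS1-3, which is known as drought-inducible in Arabidopsis, had 34.8 and 46.1 TPM in the glabrous leaves, against 0.123 and 0.288 TPM in the hairy leaves. Its C09 copy BnaC09g015410.4DH had 5.23 and 7.81 TPM in the glabrous leaves, against 3.75 and 2.39 TPM in the hairy leaves, and was not called (limma adjusted p = 0.444). BnaA04g036070.4DH, matched to the heat stress factor HSFA1D by its TAIR code and described as A-4a-like by its best protein hit, had 47.1 and 25.7 TPM in the glabrous leaves, against 0.128 and 0 TPM in the hairy leaves. Its copies on A09 and C05 were between 3.60 and 6.71 TPM in all leaves. The histone variant gene HTA11 was the other way about. BnaA03g021990.4DH had 33.9 and 17.9 TPM in the glabrous leaves and was at 0 in both hairy leaves, but the C04 copy BnaC04g052160.4DH had 251 and 160 TPM in the glabrous leaves, against 181 and 194 TPM in the hairy leaves, and the code as a whole differed by -0.01 on the log2 scale.

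By keywords in the descriptions, no broad role dominated. Transcription factors were 10 of the 215 genes (4.65%, beside 6.77% of the 18615 genes at 3 TPM or more in both glabrous leaves), F-box proteins and ubiquitin ligases 9 (4.19%, beside 3.58%), and protein kinases 3 (1.40%, beside 3.33%). Genes of DNA replication and repair and genes of histones and chromatin were 4 each (1.86%, beside 1.45% and 1.29%). A single ribosomal protein was found (0.465%, beside 3.95%). There was no NLR immune receptor and no cytochrome P450, classes that were also rare among the 18615 genes (0.156% and 0.295%). Genes of unknown function were 42 (19.5%, beside 12.8%). These shares are counts without a test.

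The scattered genes also held most of those without an Arabidopsis match. Of the 29 glabrous-only genes without a TAIR code 27 were scattered, and 14 of the 215 (6.51%) had no description at all, beside 0.629% of the 18615 genes. All 14 were scattered. BnaA03g039222.4DH, which has neither, had 66.9 and 67.0 TPM in the glabrous leaves, against 0.0708 and 0.110 TPM in the hairy leaves. BnaC09g076270.4DH, likewise, had 43.6 and 53.4 TPM in the glabrous leaves, against 0.195 and 0 TPM in the hairy leaves. Both were among the highest of the 215. BnaC09g057362.4DH, matched to a Harbinger transposase-derived nuclease, had 35.3 and 47.7 TPM in the glabrous leaves, against 0.261 and 0 TPM in the hairy leaves. A second gene of that code, BnaC04g040180.4DH, had 12.6 and 11.7 TPM in the glabrous leaves and was at 0 in both hairy leaves. The code has 381 further listed genes that are not glabrous-only, and 7 of them averaged 1 TPM or more over the hairy leaves. The highest means among the 381 were 71.6 TPM in the glabrous line and 5.58 TPM in the hairy line.

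Genes just inside and outside the limits show how the rule divides near cases. BnaC09g005350.4DH was kept with 3.02 TPM in its lower glabrous leaf, and BnaA04g018380.4DH was left out with 2.97 TPM. At the hairy limit BnaS00007g0040.4DH was kept with 0.297 TPM in its higher hairy leaf. BnaC09g001542.4DH, inside the first C09 stretch, was left out with 0.304 TPM in a hairy leaf although it had 32.6 and 28.9 TPM in the glabrous leaves. In the authors' deposited table, whose test is not stated, 304 of the 356 transcript models of the glabrous-only genes have a false discovery rate, and 175 of them, in 164 genes, are under 0.05, beside 4.05% of all transcripts that have one. The rule used the same leaves, so nothing can be read from this difference in share.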

How the data were processed

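Per the labels' protocols, paired-end libraries (insert 300 ± 50 bp) came from poly-A RNA of single very young leaves. The submitters' processing notes name cutadapt 1.9. The genome build, the gene models and the mapping program are not given in the sources consulted. The authors deposited TPM per transcript model and leaf. They also deposited the larger group mean, a signal on the TPM scale, a signed fold change given as a score, its log2 fold change (hairy over glabrous), and a p-value with its false discovery rate. TPM carry no read counts, so depth per leaf is unknown and precision rests on 2 leaves per line; nothing says that these leaves stand for separate experiments, so p-values measure only the spread between them.

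TPM were summed per gene. The fit took the 44247 genes that reached 1 TPM in 2 or more leaves. It used log2(TPM + 1) in limma 3.58.1 (R 4.3.3), with a variance trend and robust shrinkage. P-values were adjusted by Benjamini-Hochberg over the whole table. Log2 changes are glabrous minus hairy; this scale understates changes of low genes. A gene's TAIR code is that of its highest transcript. On simulated data with 42864 genes for this comparison, calls recovered 2 of 67 genes at a log2 change of 1, 49 of 67 at 2 and 66 of 66 at 4, with 17 false calls. Leaves with the same number tended to deviate in opposite directions (correlation -0.407 over the 44247 genes), so no block was used. This opposite variation stays in the spread between leaves in the fit, and calls with crosswise pairing are given below.

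The members, keyword lists and tests were chosen with earlier results of these data known. Named genes are, among those with a code, the 12 highest by their lower glabrous leaf, up to 4 of each of the 3 longest runs, those with a hairy-only copy, those without another copy at 1 TPM, up to 2 of each keyword class, the 3 on each side of each limit, and 2 without a code. Stretches, counterparts and the division of the A09 stretch were chosen after seeing the values. The A09 stretch was first drawn over 9 genes, narrowed to its run of 7 when its neighbours showed little change, and then restored; both versions are given. Of the 215 genes 141 (65.6%) matched the RefSeq Da-Ae table, which was used for neighbours only. No sequences are shown.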

Additional observations from a re-analysis of the deposited data

How the results depend on the processing

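The number of glabrous-only genes was 215 with the limits as given, 392, 142 and 80 with a minimum of 1, 5 and 10 TPM, 127 with a maximum of 0.1 TPM, and 246 to 327 with a leaf left out. The 8 genes with a hairy-only copy became 14 when that copy needed only 1 TPM, and 10 to 13 with a leaf left out. All genes called higher and lower in the glabrous line (1982 and 2319) were 641 to 1539 and 723 to 2314 with a leaf left out, and 1704 and 1834 with the leaf numbers as a replicate block. Pairing the leaf numbers crosswise, added after seeing the data, gave 3039 and 3921 calls over all genes, 10 and 101 over the other copies, 1 and 42 over the code sums, and 68 counterparts called lower. Other copies called higher (4) were 7 after quantile normalization, 11 with every TAIR code and 0 to 3 with a leaf left out. Other copies called lower (43) were 22 without a filter on low values, 21 with the replicate block and 7 to 40 with a leaf left out. Code sums called lower (9) were 3 without the filter, 4 with the replicate block, 5 without the variance trend and 2 to 15 with a leaf left out, and code sums called higher were 0 to 1. Counterparts called lower (28) were 14 without the filter, 11 with the replicate block, 18 without the variance trend and 4 to 24 with a leaf left out. Neighbours in the stretches called higher (106) were 30 to 69 with a leaf left out. In the A09 stretch 7 neighbours were called, 6 in the run of 7 and 1 before it. The median change of the A09 stretch's counterparts was -1.34 to -0.93 with a leaf left out. The cause of these shifts was not tested. Medians of all counterpart groups stayed negative in every setting. Of 495 alternative values of the 45 named genes, 97 moved by more than the spread between leaves; none reversed, which the rule itself fixes. With 2 leaves per line, changes of 1 on the log2 scale were rarely called.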
